A study of Mus musculus with 18 samples.

Results

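The 8 genes described here are Rims2, Ncan, Fhdc1, Mfsd2a, Lgr6, 1700061I17Rik, 9030619P08Rik and 4921536K21Rik, little-studied genes picked for higher intensities in brown adipose tissue (BAT) at 6°C and for having no known role in heat production. How little they had been studied, and whether any has a known role in heat production, was not checked here. They are 8 of 18193 genes with a probe set that names 1 gene, and they hold 16 of 45037 probe sets: 5 for Rims2, 3 for Ncan, 2 each for Fhdc1 and Lgr6, and 1 for each other gene. The study asked how adipose depots differ and respond when mice are kept in the cold. Intact female Sv129 mice aged 10 weeks spent 10 days at 6 or 28°C, and RNA of whole BAT, subcutaneous white adipose tissue (sWAT) and mesenteric white adipose tissue (mWAT) was amplified and hybridized to Affymetrix arrays. The groups were BAT at 6°C, BAT at 28°C, sWAT at 6°C, sWAT at 28°C, mWAT at 6°C and mWAT at 28°C, with 3 arrays each and 18 in all. The methods call the 3 arrays biological replicates, the labels do not tell which arrays share a mouse, and array numbers 1 to 3 below only name the arrays of a group.

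Depot and temperature were read from titles, source names and descriptions, which contradict the tissue and temperature given among the other characteristics. Zic1, a transcription factor gene of classic brown fat, had a log2 intensity of 9.84 to 9.93 in BAT at 6°C and 9.67 to 9.69 in BAT at 28°C. It had at most 3.74 on any sWAT or mWAT array, so it separated BAT from the white depots as the titles do. For temperature, Ucp1, which the study calls a classic gene induced by cold in BAT, had mean log2 intensities of 14.36 in BAT at 6°C and 14.03 at 28°C. In sWAT they were 13.80 and 10.15, and in mWAT 9.50 and 6.48. In each depot every Ucp1 array titled 6°C lay above every array titled 28°C. Array medians lay between 6.97 and 7.20 on the log2 scale. The table holds no detection calls, so the exact size of a difference is not measured where one side lies under these medians, and 5 of the 16 probe sets had no group mean above the lowest median. In whole tissue, fewer cells of a type and less RNA per cell cannot be told apart. The mWAT arrays 3 at 6 and 28°C had a correlation of 0.99 with each other over all probe sets. Theirs with the remaining mWAT arrays was 0.95 to 0.97. The summed intensity of lymphocyte markers was 1850 and 1925 on these arrays 3, against 32516 to 38138 on the remaining mWAT arrays. That of pancreas markers was 139436 on mWAT array 2 at 6°C, 10588 on mWAT array 1 at 28°C and 13951 on BAT array 3 at 6°C. On every other array it was at most 1432. The part of these cells in the member values was not tested.

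Brown adipocytes burn fatty acids and glucose to give heat, and noradrenaline from sympathetic nerves drives the cyclic AMP signal that switches this program on. In the cold, cells with brown features (brite or beige adipocytes) also appear in white depots, more in subcutaneous than in visceral ones. The 8 genes come from unrelated families: Rims2 and Ncan are best known from neurons and brain matrix, Fhdc1 from the cytoskeleton, Mfsd2a from lipid transport at the blood-brain barrier and Lgr6 from epithelial progenitor cells. RefSeq lists 1700061I17Rik as a long noncoding RNA, 9030619P08Rik as a transcribed pseudogene and 4921536K21Rik as protein coding.

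RefSeq promoter sequences (GRCm38.p6, from 250 bases before to 50 after a start site, strand of the gene) were given for 6 of the 8 genes, with 2 start sites for Fhdc1, which makes 7 promoters. Rims2 and 9030619P08Rik were not among them. The promoters of Ncan (chr8:70120795-70121094, minus strand), Mfsd2a (chr4:122961139-122961438, minus strand) and 1700061I17Rik (chr3:117077716-117078015, minus strand) are shown because Ncan was also higher in cold sWAT, Mfsd2a ran the other way there, and 1700061I17Rik is the noncoding RNA. Capitals mark the motifs searched, each on either strand. The cyclic AMP response element was searched as TGACGTCA and by its core, TGACG. The site of nuclear receptors was searched as AGGTCA, and the TATA box as TATAAA. The box named after its letters CCAAT was a further motif. The box of SP1 family factors was searched as GGGCGG, and the palindromic E-box as CACGTG. No 2 of them overlapped in the promoters shown.

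Ncan: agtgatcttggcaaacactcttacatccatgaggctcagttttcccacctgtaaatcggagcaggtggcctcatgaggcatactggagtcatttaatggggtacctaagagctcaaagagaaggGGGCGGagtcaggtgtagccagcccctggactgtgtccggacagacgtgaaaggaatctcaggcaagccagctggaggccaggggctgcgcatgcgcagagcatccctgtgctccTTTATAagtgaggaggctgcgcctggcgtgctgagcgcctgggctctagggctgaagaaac
Mfsd2a: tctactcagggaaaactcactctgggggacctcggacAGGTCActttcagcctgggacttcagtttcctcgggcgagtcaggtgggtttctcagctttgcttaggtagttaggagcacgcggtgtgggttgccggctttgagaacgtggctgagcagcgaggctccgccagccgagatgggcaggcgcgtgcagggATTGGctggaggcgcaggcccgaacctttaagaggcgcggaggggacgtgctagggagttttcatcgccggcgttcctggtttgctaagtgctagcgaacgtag
1700061I17Rik: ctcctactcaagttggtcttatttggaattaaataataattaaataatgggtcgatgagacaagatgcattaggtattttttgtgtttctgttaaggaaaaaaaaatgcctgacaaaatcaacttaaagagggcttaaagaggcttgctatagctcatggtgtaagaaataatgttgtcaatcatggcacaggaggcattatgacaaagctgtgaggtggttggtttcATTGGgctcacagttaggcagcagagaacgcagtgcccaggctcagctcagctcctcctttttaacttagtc

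None of the 7 promoters held TGACG, which 20.8% of 32851 promoters of this length held, and so none held the full element (1.79% of all). AGGTCA lay in the Mfsd2a promoter only, 213 bases before the start site, against 16.3% of all promoters. The Ncan promoter held TATAAA on the opposite strand 11 bases before the start site (13.6% of all promoters held this motif) and GGGCGG 126 bases before it. CCAAT lay on the opposite strand in Mfsd2a and in 1700061I17Rik, 54 and 22 bases before their start sites (37.4% of all). GGGCGG lay in 5 of the 7, those of Ncan, Fhdc1 (both start sites), Lgr6 and 4921536K21Rik, against 35.7% of all promoters. CACGTG lay in none (7.15% of all). These matches describe letters in a window and nothing about the factors that bind them.

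The genes were chosen by their log2 intensities on the BAT arrays at 6 and 28°C, so these values are given as a description. Of the 16 probe sets, 14 had all 3 arrays at 6°C above all 3 at 28°C, where 18.6% of all probe sets did. All 16 differences were above 0, with a median of 3.04 on the log2 scale beside 0.01 over all probe sets. The largest was 5.10 for 9030619P08Rik, the third largest rise among all 45037 probe sets, and the smallest were those of 2 dim Rims2 probe sets.

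**Figure D1:**
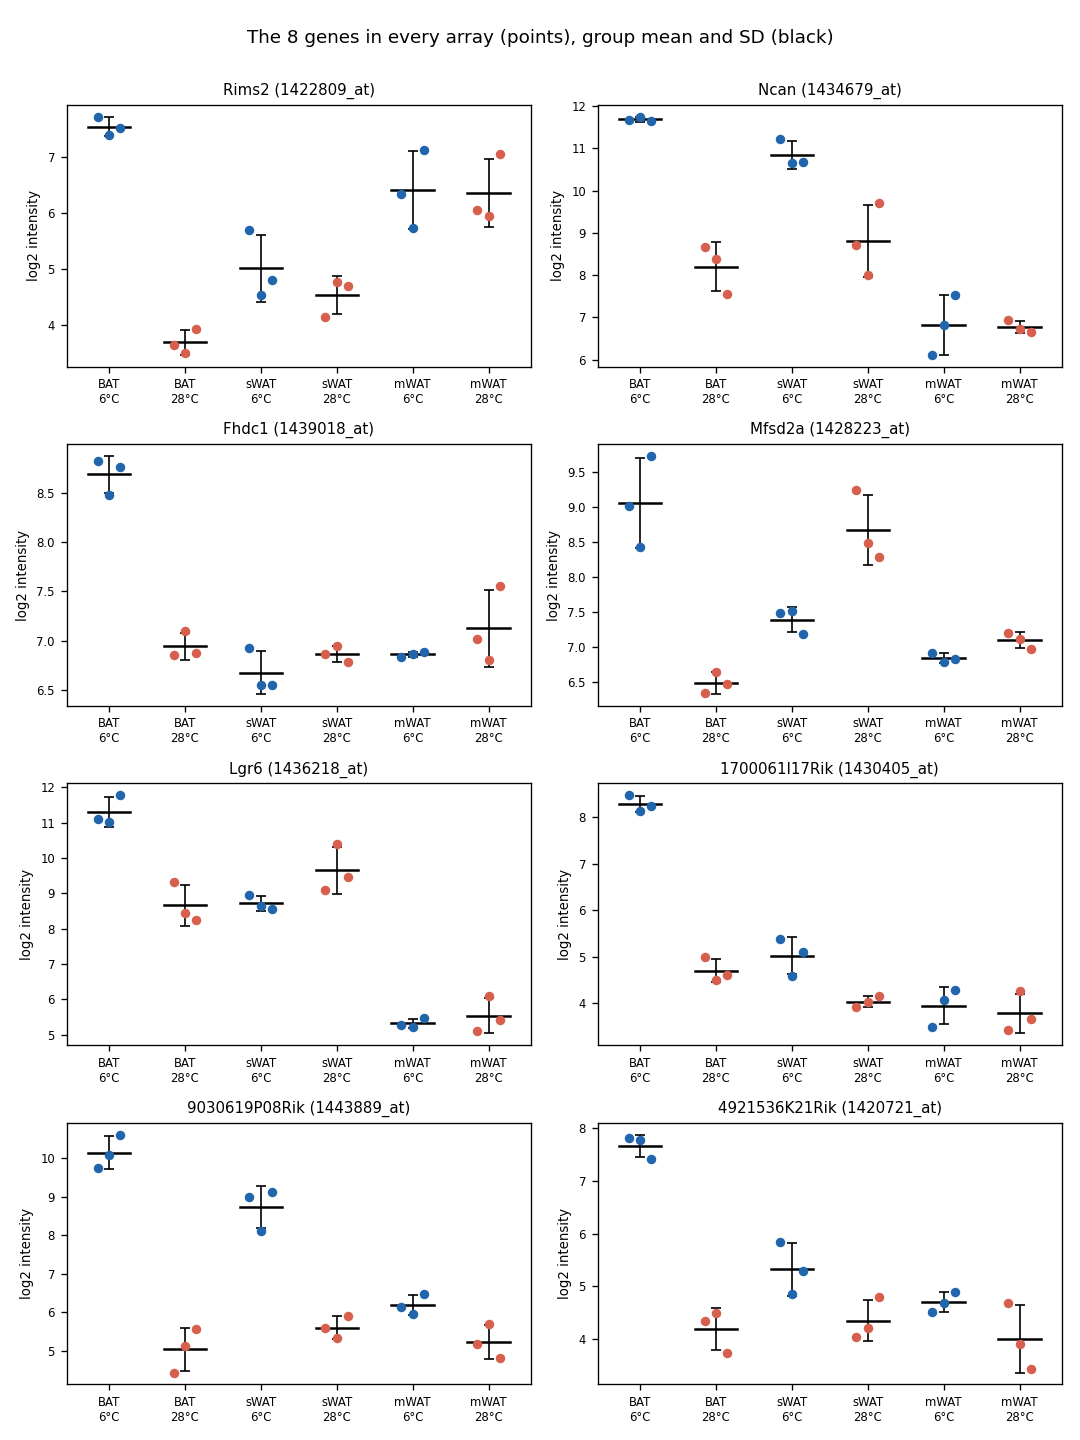
Log2 intensity of the brightest probe set of each gene (vertical axis) on the 3 arrays (points) of each depot and temperature, with mean and SD in black. BAT at 6°C had the highest mean in every panel, while sWAT at 6°C lay clearly above sWAT at 28°C for Ncan and 9030619P08Rik and below it for Mfsd2a and Lgr6.

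Beyond BAT, the genes did not behave alike. In sWAT, whose arrays the rule did not use, 2 probe sets passed limma's test at an adjusted p of 0.01 as higher at 6°C, one each of Ncan and 9030619P08Rik, and none passed as lower. Over all probe sets 0.464% (209) passed as higher and 0.0155% (7) as lower. The study reported more probe sets altered by cold in sWAT, and in mWAT, at the threshold it states. The cause of this was not tested. In all, 8 of the 16 had an unadjusted p under 0.05. The share of all probe sets or genes under it was not taken, here or for such counts below. These counts therefore have no baseline, and probe sets of 1 gene are not independent. The median difference was 0.32, beside -0.01 over all probe sets. The count of 2 fell to 1 without sWAT array 1 or 2 at 6°C or sWAT array 1 or 2 at 28°C, and reached 4 without sWAT array 3 at 28°C. In mWAT no member probe set passed in either direction (0.00222% of all probe sets did), and 2 had an unadjusted p under 0.05.

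**Figure D2:**
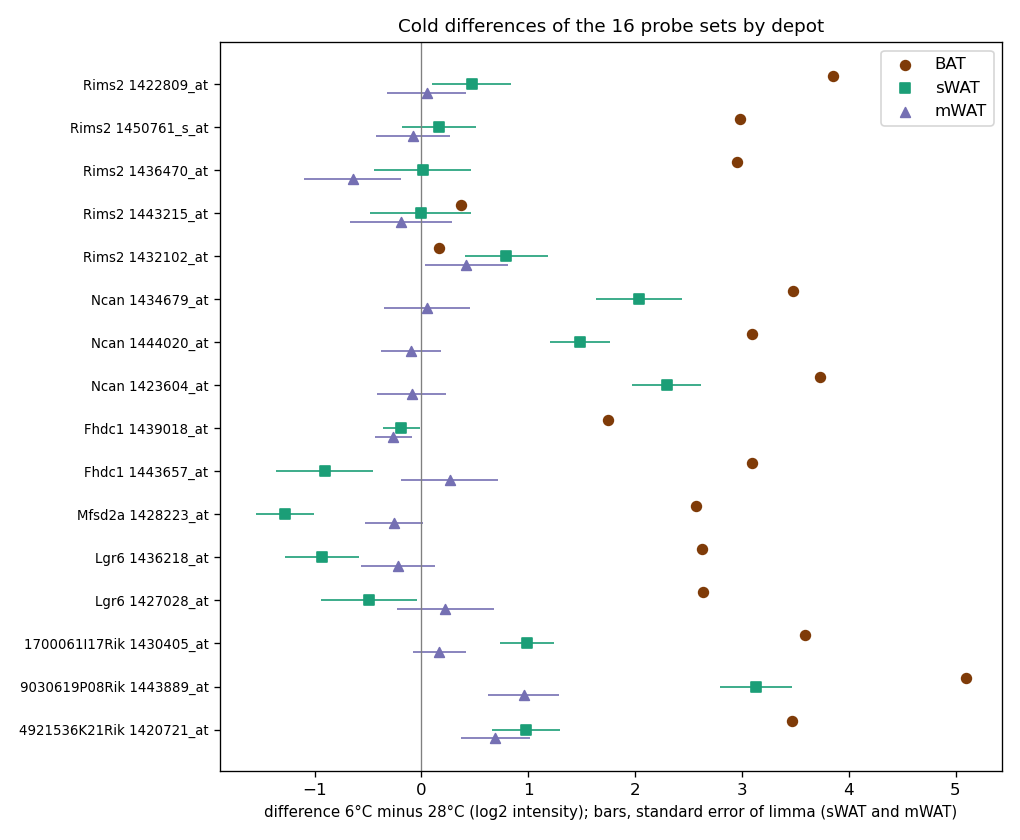
Difference of 6 minus 28°C in log2 intensity (horizontal axis) for the 16 probe sets in BAT, sWAT and mWAT, with limma's standard error for sWAT and mWAT. BAT points reach 5.10, sWAT points run between -1.28 and 3.13, and mWAT points stay within 1 of 0.

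Rims2 encodes a scaffold protein of the presynaptic active zone that binds the vesicle GTPase Rab3 and prepares vesicles for release. Its brightest probe set, 1422809_at, had log2 intensities of 7.72, 7.38 and 7.52 in BAT at 6°C, against 3.64, 3.49 and 3.92 in BAT at 28°C. The groups were far apart, and the difference of 3.86 was the tenth largest rise of all probe sets. In sWAT it had 5.69, 4.53 and 4.79 at 6°C and 4.14, 4.76 and 4.69 at 28°C, and the groups overlapped. In mWAT it had 6.34, 5.73 and 7.13 at 6°C and 6.05, 5.95 and 7.06 at 28°C. The 2 temperatures could hardly be told from one another there, with a difference of 0.05 ± 0.37 (SE, n = 3 each; limma adjusted p = 1).

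Probe sets 1450761_s_at and 1436470_at were also higher in BAT at 6°C than at 28°C without overlap, with differences of 2.98 and 2.96 and correlations with the brightest one of 0.96 and 0.91 over the 18 arrays. Probe sets 1443215_at and 1432102_at did not: their arrays overlapped in BAT, with differences of 0.37 and 0.17, and their group means lay far under the array medians. In 1422809_at BAT at 6°C had the highest mean of the 6 groups and BAT at 28°C the lowest, with mWAT between them and above sWAT. The neighbours in this order whose arrays overlapped were mWAT at 6 and 28°C, and sWAT at 6 and 28°C. In 1436470_at BAT at 6°C, with a mean of 6.28, was not the highest group: mWAT at 28°C had a mean of 6.39, and the arrays of BAT and mWAT at 6°C overlapped.

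Rims2 was lower in sWAT than in mWAT at 28°C in 3 probe sets, by 1.82 ± 0.37 (adjusted p = 0.0042), 1.74 ± 0.35 (adjusted p = 0.0038) and 2.73 ± 0.46 (adjusted p = 0.00092) on the log2 scale, in limma with n = 3 each. At 6°C, 1450761_s_at (-1.50 ± 0.35, adjusted p = 0.0091) and 1436470_at (-2.08 ± 0.46, adjusted p = 0.0063) passed, and 1422809_at had -1.40 ± 0.37 (adjusted p = 0.020). All these sWAT and mWAT group means lay under the array medians, so the sizes of these differences are not measured. The calls at 28°C of 1422809_at and 1450761_s_at were each lost in 6 alternatives. Among them were 32 added before log2 and leaving out mWAT array 3 at 28°C. The 2 calls at 6°C were lost in 18 and 7 of 25 alternatives, and that of 1436470_at was also lost with both mWAT arrays 3 left out. Markers of neurons moved the same way: their summed intensity (15 of 16 with a probe set) was 750 to 809 in sWAT at 6°C and 635 to 848 in sWAT at 28°C, against 15162 to 24945 in mWAT at 6°C and 13307 to 26811 in mWAT at 28°C. The mWAT arrays 3 were highest in both temperatures for Rims2 and for these markers. In BAT the same sum was 1375 to 1537 at 6°C and 738 to 1002 at 28°C, far under mWAT, and 1 of the 15 markers passed as higher. The part of neurons in the Rims2 result was not tested.

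Ncan encodes neurocan, a chondroitin sulfate proteoglycan of the lectican family that binds hyaluronan in brain matrix. Probe set 1434679_at had 11.66, 11.75 and 11.65 in BAT at 6°C, against 8.67, 8.39 and 7.56 in BAT at 28°C. In sWAT it had 11.23, 10.65 and 10.67 at 6°C, against 8.73, 8.01 and 9.71 at 28°C. In mWAT it had 6.12, 6.82 and 7.54 at 6°C, against 6.94, 6.72 and 6.67 at 28°C. The cold arrays stood above the warm ones in BAT and in sWAT without overlap, while those of mWAT overlapped. Its 3 probe sets correlated at 0.98 over the 18 arrays, and their BAT differences were 3.48, 3.09 and 3.73.

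In sWAT, 1423604_at passed the test as higher at 6°C, by 2.30 ± 0.32 on the log2 scale or 4.91-fold (limma adjusted p = 0.0022, n = 3 each). Its arrays read 8.87, 8.79 and 8.42 at 6°C, against 6.21, 5.97 and 7.02 at 28°C. The mean at 28°C lay under the array medians, so this fold has no measured base. The other probe sets missed the threshold, with 2.04 ± 0.40 (adjusted p = 0.020) for 1434679_at and 1.49 ± 0.28 (adjusted p = 0.016) for 1444020_at. The call for 1423604_at was lost without sWAT array 1 or 2 at either temperature and when only the 2 sWAT groups entered the fit, with adjusted p of up to 0.058 over its alternatives. Markers of brown adipocytes moved with Ncan in sWAT: 8 of 11 passed as higher at 6°C, with a median difference of 2.59, and their summed intensity was 44435 to 55467 at 6°C, against 9062 to 12531 at 28°C. Their part in the Ncan result was not tested. In mWAT the 3 differences lay between -0.10 and 0.05. For 1423604_at the cold difference in sWAT exceeded that in mWAT by 2.39 ± 0.46 and missed the threshold (adjusted p = 0.18). Over all 45037 probe sets 0% passed that test as higher and 0% as lower.

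At 28°C the Ncan probe set 1434679_at was 2.04 ± 0.40 higher in sWAT than in mWAT on the log2 scale (adjusted p = 0.0033), a call lost in 6 of 26 alternatives, 5 of them leaving out 1 array. The others did not pass there, with 1.01 ± 0.28 (adjusted p = 0.032) for 1444020_at and 1.04 ± 0.32 (adjusted p = 0.055) for 1423604_at. At 6°C all 3 probe sets passed as higher in sWAT with differences of 4.02, 2.60 and 3.43, or 16.3-fold, 6.07-fold and 10.8-fold. Their mWAT means at 6°C lay under the array medians, so these folds have no measured base. Over all 8 genes, at 28°C 3 member probe sets passed as higher and 3 as lower in sWAT than in mWAT, where 2.14% and 3.7% of all probe sets passed, and at 6°C 6 passed as higher and 2 as lower, where 3.75% and 3.7% passed. The count at 28°C, 6 in all, was 3 without sWAT array 3 or mWAT array 3 at 28°C. The count at 6°C, 8 in all, was 5 without sWAT array 3 or mWAT array 1 at 6°C.

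Fhdc1 encodes a protein with the FH2 domain of formins, which organise actin and microtubules. Probe set 1439018_at had 8.83, 8.48 and 8.76 in BAT at 6°C, against 6.85, 7.10 and 6.88 in BAT at 28°C. These BAT arrays at 6°C stood above all 15 others, which ranged only between 6.55 and 7.56. The BAT difference was 1.74, the smallest of any gene's brightest probe set here. The dim probe set 1443657_at gave 3.09 in BAT. Neither passed the test in sWAT, with differences of -0.19 ± 0.17 (adjusted p = 0.75) and -0.90 ± 0.45 (adjusted p = 0.45) in limma, n = 3 each. No neighbouring pair of groups below BAT at 6°C differed beyond its spread.

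Mfsd2a encodes a sodium-dependent transporter of lysophosphatidylcholines, which carries polyunsaturated fatty acids across the blood-brain barrier. Probe set 1428223_at had 9.01, 8.44 and 9.73 in BAT at 6°C, against 6.34, 6.65 and 6.47 in BAT at 28°C. In sWAT it had 7.49, 7.51 and 7.19 at 6°C, against 9.24, 8.49 and 8.29 at 28°C. The cold arrays were all higher in BAT and all lower in sWAT. The BAT difference was 2.57, or 5.95-fold, from a mean at 28°C under the array medians. The sWAT difference of -1.28 ± 0.27 missed the threshold (limma adjusted p = 0.030, n = 3 each), with adjusted p between 0.011 and 0.15 over its alternatives.

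In mWAT the Mfsd2a arrays were also lower at 6°C, by much less: 6.93, 6.78 and 6.83 at 6°C, against 7.21, 7.12 and 6.98 at 28°C. The difference was -0.26 ± 0.27 (adjusted p = 1). At 28°C sWAT was 1.57 ± 0.27 above mWAT on the log2 scale, or 2.97-fold (adjusted p = 0.0013), a call lost only when the 2 groups alone were fitted. At 6°C that difference was 0.55 ± 0.27 (adjusted p = 0.23). BAT at 6°C and sWAT at 28°C, the 2 highest groups, overlapped, and BAT at 28°C was lowest.

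Lgr6 encodes a receptor for R-spondins, secreted proteins that strengthen WNT signals, and marks epithelial progenitor cells in mouse skin and mammary gland. Probe set 1436218_at had 11.11, 11.01 and 11.77 in BAT at 6°C, against 9.33, 8.44 and 8.24 in BAT at 28°C, without overlap. In sWAT it had 8.95, 8.63 and 8.56 at 6°C, against 9.10, 10.38 and 9.46 at 28°C, so the cold arrays were all lower, by little in one case. In mWAT it had 5.28, 5.21 and 5.46 at 6°C and 5.12, 6.08 and 5.41 at 28°C, which overlapped. The BAT difference was 2.63, that of 1427028_at 2.64, and the sWAT difference of -0.93 ± 0.35 did not pass (limma adjusted p = 0.25, n = 3 each). sWAT was far above mWAT, by 4.11 ± 0.35 at 28°C (17.3-fold, adjusted p = 1.9e-06) and 3.40 ± 0.35 at 6°C (10.5-fold, adjusted p = 1.3e-05) in 1436218_at. The mWAT arrays lay under the array medians, so these folds have no measured base. The other probe set, 1427028_at, passed at neither temperature, with 1.57 ± 0.45 at 28°C (adjusted p = 0.039) and 0.85 ± 0.45 at 6°C (adjusted p = 0.27). Its sWAT arrays overlapped, at 6.03, 5.90 and 6.12 at 6°C, against 6.23, 7.35 and 5.95 at 28°C (-0.49 ± 0.45, adjusted p = 0.75).

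In sWAT the summed markers of mammary epithelium were lower at 6°C, as were the group means of Lgr6 and Mfsd2a. The summed intensity of the 12 markers, all with a probe set, was 30560 to 34350.4 in sWAT at 6°C, against 42499.7 to 73191 in sWAT at 28°C, without overlap, while none of the 12 passed the test and 5 had an unadjusted p under 0.05. Over the 6 sWAT arrays the Lgr6 probe set 1436218_at followed the same order as the mean log2 level of these markers. Both were highest on sWAT array 2 at 28°C. The other Lgr6 probe set, 1427028_at, was also highest on that array but did not follow the order. On sWAT array 3 at 28°C it read 5.95, under the 6.03 and 6.12 of sWAT arrays 1 and 3 at 6°C. The marker levels of those cold arrays were 9.49 and 9.35, against 10.92 on array 3 at 28°C. Mfsd2a did not follow the order either. It was highest on array 1 at 28°C, which had the lowest level of these markers among the warm sWAT arrays. In BAT the sum was 511 to 716 at 6°C and 349 to 2983 at 28°C. The part of mammary epithelium in either result was not tested. Skeletal muscle markers also varied, with sums of 3568 to 26153 in BAT at 6°C and 10463 to 125864 in BAT at 28°C. In sWAT they had 1130 to 51208 at 6°C and 3485 to 115891 at 28°C, highest on array 2 at 28°C, as Lgr6 was. Lymphocyte markers had sums of 9221 to 20034 in sWAT at 6°C and 9779 to 33815 at 28°C. They were highest on array 1 at 28°C, as Mfsd2a was. Both sums overlapped between the temperatures, and their part in either result was not tested.

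**Figure D3:**
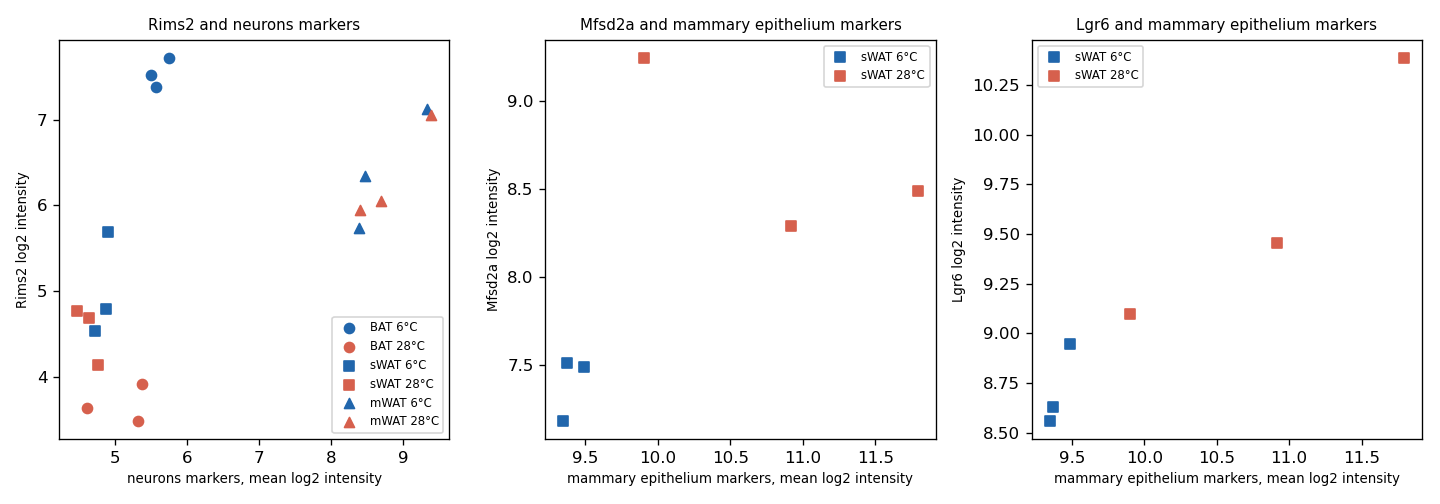
Log2 intensity of Rims2 (all 18 arrays), Mfsd2a and Lgr6 (sWAT arrays) on the vertical axis against the mean log2 intensity of neuron or mammary epithelium markers on the horizontal axis, 1 point per array. The Lgr6 probe set 1436218_at orders the sWAT arrays as the mammary markers do, up to 10.38 at a marker mean of 11.79. BAT at 6°C has high Rims2 at a neuron marker mean of 5.49 to 5.75.

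1700061I17Rik had 8.48, 8.15 and 8.24 in BAT at 6°C, against 4.98, 4.50 and 4.61 in BAT at 28°C, a difference of 3.59 with no overlap. In sWAT it had 5.38, 4.58 and 5.10 at 6°C, against 3.92, 4.02 and 4.15 at 28°C. The cold sWAT arrays were all above the warm ones, yet all lay under the array medians. The sWAT difference of 0.99 ± 0.25 missed the threshold (limma adjusted p = 0.067, n = 3 each). At 6°C sWAT was 1.07 ± 0.25 above mWAT on the log2 scale (adjusted p = 0.0092), a call lost in 17 of 26 alternatives.

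9030619P08Rik lies among the Ly6 genes, and the study named it in its own results for cold sWAT from these samples, so its direction there is not independent evidence. Termed Cil6l by the study, it was also measured there by qRT-PCR and rose in the cold in BAT and sWAT only. It had 9.75, 10.07 and 10.61 in BAT at 6°C, against 4.44, 5.12 and 5.57 in BAT at 28°C. In sWAT it had 8.98, 8.11 and 9.13 at 6°C, against 5.59, 5.33 and 5.91 at 28°C. In mWAT it had 6.14, 5.96 and 6.48 at 6°C, against 5.19, 5.69 and 4.82 at 28°C. It was the one gene of the 8 whose cold arrays stood above the warm ones in all 3 depots.

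The difference was 5.10 in BAT (34.4-fold), 3.13 ± 0.33 in sWAT (8.77-fold, limma adjusted p = 0.00026) and 0.96 ± 0.33 in mWAT (1.94-fold, adjusted p = 1), n = 3 each. The brown adipocyte markers given above moved with this gene in sWAT too, and their part was not tested. The sWAT call was lost only when the sWAT groups alone were fitted (adjusted p = 0.032) and held without any single array. The warm groups of all depots lay under the array medians, so these folds have no measured base. At 28°C sWAT and mWAT differed by 0.37 ± 0.33 (adjusted p = 0.63), and at 6°C sWAT was 2.55 ± 0.33 higher (5.85-fold, adjusted p = 0.00012), which held in all 26 alternatives. The mWAT arrays at 6°C also lay under the array medians. The cold difference in sWAT exceeded that in mWAT by 2.18 ± 0.47 (adjusted p = 0.31).

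4921536K21Rik, which the study listed among cold genes of sWAT from these same samples, had 7.80, 7.76 and 7.42 in BAT at 6°C, against 4.34, 4.50 and 3.74 in BAT at 28°C. In sWAT it had 5.85, 4.84 and 5.28 at 6°C, against 4.04, 4.21 and 4.79 at 28°C, and in mWAT 4.51, 4.69 and 4.89 at 6°C, against 4.69, 3.90 and 3.42 at 28°C. The groups were clear of one another in BAT, just clear in sWAT and overlapping in mWAT. The BAT difference was 3.47, and that of sWAT, 0.98 ± 0.32, did not pass (limma adjusted p = 0.17, n = 3 each). The listing of this gene by the study as induced by cold in sWAT was thus not reproduced at the threshold used here.

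Genes related to the members were counted over 6 lists, those of the active zone and exocytosis, lecticans and their partners, formins, Mfsd transporters, R-spondin receptors, and Ly6 proteins. Of 126 such genes with a probe set, 5 passed as higher and 4 as lower in BAT at 6°C, where 2.8% and 2.53% of all genes passed. In sWAT 1 passed as higher and 0 as lower, where 0.72% and 0.022% of all genes passed, and in mWAT 0, with 5 at an unadjusted p under 0.05. The BAT count of 9 was 5, 4 and 2 without BAT array 1, 2 or 3 at 6°C and 5 and 3 without BAT array 2 or 3 at 28°C.

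Of the active zone list, Pclo, which encodes the large scaffold protein Piccolo, was 1.55 ± 0.31 higher in BAT at 6°C (limma adjusted p = 0.0043, n = 3 each), the 1 call among 33 genes. The Rims2 paralogs did not pass: Rims4 had 1.33 ± 0.32 (adjusted p = 0.015), Rims3 -0.28 and Rims1 -0.08. Of 16 genes of lecticans and partners, Hapln4, a link protein that ties lecticans to hyaluronan, was 1.74 ± 0.29 higher (adjusted p = 0.0014). Its arrays read 8.71, 8.71 and 8.65 in BAT at 6°C, against 7.47, 7.15 and 6.24 at 28°C. Tnc, the matrix protein tenascin C, was lower by 1.37 ± 0.25, and Has3, a hyaluronan synthase, by 1.57 ± 0.31. Every Has3 array lay under the array medians, so the size of its fall is not measured. The calls of Pclo, Hapln4, Tnc and Has3 were lost in 6, 1, 3 and 6 of their alternatives. The lecticans Acan, Bcan and Vcan had 0.34, -0.07 and -0.31, and none passed.

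Among 13 formin genes Daam1 passed as lower in BAT (-0.71 ± 0.16, adjusted p = 0.0083), a call lost in 13 of 26 alternatives. Among 21 genes of the Mfsd list, Mfsd4b1 (2.01 ± 0.32, adjusted p = 0.0011) and Mfsd9 (0.92 ± 0.20) passed as higher and Mfsd12 (-1.03 ± 0.22) as lower. The calls of Mfsd9 and Mfsd12 were lost in 12 and 9 of 26 alternatives. Mfsd4b1 also passed in sWAT (1.90 ± 0.32, adjusted p = 0.0081), a call lost in 15 of 26 alternatives. The sWAT call of Mfsd4b1 was the 1 of the count above, which was 0 without any of 14 arrays and 2 without sWAT array 3 at 28°C. Mfsd2b had 0.00 ± 0.20 in BAT.

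For Lgr6 the ligand Rspo4 stood out among 17 genes, at 10.25, 10.81 and 10.79 in BAT at 6°C, against 8.93, 9.13 and 7.71 at 28°C. It was 2.03 ± 0.35 higher (limma adjusted p = 0.0018, n = 3 each), a call lost without BAT array 3 at 6°C and when BAT groups alone were fitted. Rspo1 had the largest change of the list in sWAT, -2.85 ± 0.87, and did not pass (adjusted p = 0.14). The sister receptors Lgr4 and Lgr5 had -0.08 and -0.09 in BAT, and Axin2, a target of WNT signals that feeds back on them, had -0.06 ± 0.24 (adjusted p = 0.92). None of 26 Ly6 genes passed in any depot, and the largest changes were 0.99 ± 0.25 for Cd59a in BAT (adjusted p = 0.017) and -1.48 ± 0.38 for Lypd6b in sWAT (adjusted p = 0.069), with 6 and 4 of the 26 at an unadjusted p under 0.05 in BAT and sWAT.

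**Figure D4:**
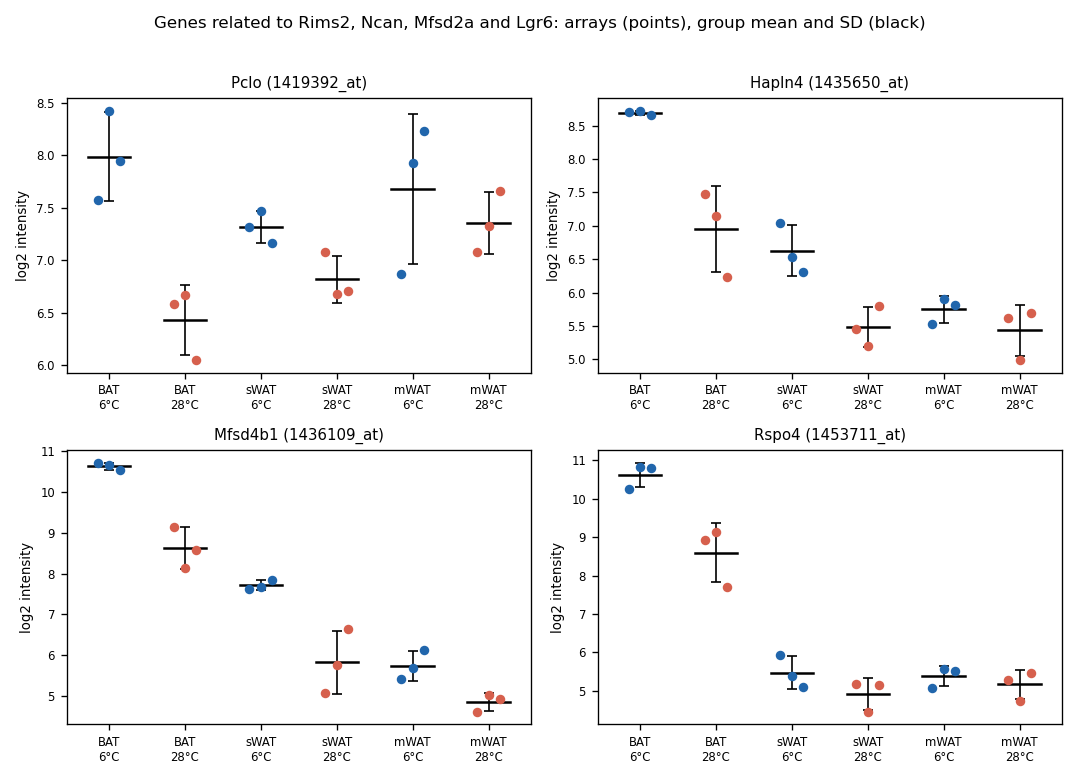
Log2 intensity of Pclo, Hapln4, Mfsd4b1 and Rspo4 (vertical axis) on the 3 arrays (points) of each depot and temperature, with mean and SD in black. All 4 were higher in BAT at 6°C, and Rspo4 stayed between 4.45 and 5.95 on every sWAT and mWAT array.

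The nearest genes with a probe set on either side of each member were read from the RefSeq gene table (GRCm38.p6). Hapln4 is the gene next to Ncan with none between them, and its sWAT difference was 1.14 ± 0.29 (adjusted p = 0.064). Dusp18, a phosphatase gene next to 4921536K21Rik, was 1.04 ± 0.18 higher in BAT at 6°C (adjusted p = 0.0018), while Osbp2, an oxysterol-binding protein gene on the other side with 5 genes between, was lower by 0.88 ± 0.15 (adjusted p = 0.0015). Of the 16 neighbours these 3 passed in BAT, 2 as higher and 1 as lower, beside the 2.8% and 2.53% of all genes given above. Ly6f and Ly6h, around 9030619P08Rik, had 0.11 and -0.63.

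The genes most like each member were found by Pearson correlation of log2 intensity over the 18 arrays among 18185 genes. The points share depots and temperatures and include the BAT arrays that chose the members, so these values describe group patterns. Rims2 was most like Gm20300 (0.96), Egln3 (0.94) and Tacr2 (0.92). Ncan was most like Tinag (0.96), S100g (0.94) and Gys2 (0.94), and Gys2, glycogen synthase of the liver type, was also among those of 9030619P08Rik (0.93), beside Abhd1 (0.96) and Elovl3 (0.93), a fatty acid elongase gene of brown fat. Fhdc1 was most like St3gal5 (0.95), Iqch (0.93) and Cabyr (0.93), which fell to 0.25, 0.14 and 0.51 over the 12 sWAT and mWAT arrays. Mfsd2a had the weakest partners, 5031439G07Rik (0.87), B4galt1 (0.84) and Ntsr2 (0.83), which had 0.71, 0.73 and 0.49 over those 12 arrays. Lgr6 was most like Tmem139, Ttpa and Alpl (0.95, 0.95 and 0.94). Over those 12 arrays the partners of Rims2, Ncan, Lgr6 and 9030619P08Rik had 0.88 to 0.97.

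1700061I17Rik was most like Pop7, Acot8 and Bmp8b, all at 0.98, and these had 0.91, 0.75 and 0.74 over the 12 sWAT and mWAT arrays. 4921536K21Rik was most like Tgoln1, Dnajc16 and Acot12 (0.94, 0.94 and 0.93), which had 0.68, 0.76 and 0.71 there. Among the members, 1700061I17Rik and 4921536K21Rik were most alike over the 18 arrays (0.93), which hold the BAT arrays that chose the members. This pair had 0.72 over the 12 sWAT and mWAT arrays. There 1700061I17Rik and 9030619P08Rik were most alike (0.90), while Rims2 and Lgr6 ran opposite (-0.82).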

How the data were processed

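The 18 arrays measured RNA of BAT, sWAT and mWAT of mice kept at 6 or 28°C. The authors adjusted for background, summarized and normalized the arrays in Bioconductor, by an algorithm not given in the sources used here, and the deposited values are linear intensities, 1 for each probe set and array. Of 45101 probe sets 64 controls were left out. The log2 of the intensity, with nothing added and no filter, was fitted with limma 3.58.1 (R 4.3.3) as 6 group means, and Benjamini-Hochberg adjustment ran over 45037 probe sets for each comparison, with a threshold of 0.01. Gene names came from GEO's platform annotation: 34945 probe sets name 1 gene, 932 several and 9160 none. A member is given with every probe set that names it alone, and other genes with their probe set of highest mean. The text names the members, up to 3 passing genes of each list or up to 2 with the largest change where none passed, the flanking genes and the 3 most alike. Rims paralogs, lecticans, Mfsd2b, Lgr4, Lgr5 and Axin2 were named after their values were seen. The members, lists, motifs and rules were chosen with earlier results of these data known. Members were not tested in BAT, since its arrays chose them. The scripts were tested on simulated data. The number of arrays limits the precision. The alternatives were another threshold, a fit of the compared groups alone, 2 other scalings, leaving out dim probe sets, a variance trend, 32 added before log2, the mean of a gene's probe sets, and leaving out each array. Leaving out both mWAT arrays 3 was added after seeing the data.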

Additional observations from a re-analysis of the deposited data

Results flagged for a closer look

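These results went opposite ways in depots, with every array at 6°C on one side of every array at 28°C in each depot. The difference between depots was not tested for any of them, because the BAT arrays chose the genes. How many of all probe sets separate in this way was not counted. Mfsd2a (1428223_at) was 2.57 higher on the log2 scale in BAT at 6°C. Its difference was -1.28 in sWAT (limma adjusted p = 0.030) and -0.26 in mWAT, and neither passed the threshold. Lgr6 (1436218_at) was 2.63 higher in BAT at 6°C, and its difference of -0.93 in sWAT did not pass (limma adjusted p = 0.25). The arrays of its other probe set, 1427028_at, overlapped in sWAT, with a difference of -0.49.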

How the results depend on the processing

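No paired analysis was possible because the labels carry no replicate numbers and do not tell which arrays share a mouse. The 16 called member results kept their sign under every alternative, and 67 of 412 recomputed values no longer passed. The count of member probe sets higher in cold sWAT, 2 as reported, was 4 at an adjusted p of 0.05, 0 with only the groups compared, 4 with a variance trend and 4 with 32 added before log2. The counts for sWAT against mWAT were 2 at 28°C and 5 at 6°C with only the groups compared, and 5 at 6°C with 32 added. Related genes passing in BAT, 9 as reported, were 17 at an adjusted p of 0.05 and 3 with only the groups compared, and in sWAT, 1 as reported, 2 and 0. Leaving out 1 array gave 1 to 4 member probe sets in sWAT, 0 to 0 in mWAT and for the difference between cold responses, 3 to 6 at 28°C and 5 to 8 at 6°C, and for related genes 2 to 10 in BAT and 0 to 2 in sWAT. Leaving out both mWAT arrays 3, chosen after seeing the data, moved none of these counts by over 1.5 times. The cause of each change was not tested. Of the 64 member results that did not pass, 20 changed sign under an alternative and none did so past the threshold. Low signals limit the BAT differences. With 32 added before log2, those of Rims2 were 2.28 (1422809_at), 1.64 (1450761_s_at), 1.40 (1436470_at), 0.18 (1443215_at) and 0.11 (1432102_at), that of Fhdc1 1443657_at was 1.56 and that of 4921536K21Rik 2.21, each under the value as reported by over 1.5 times. The filter on dim probe sets kept 11 of the 16.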
